A study of Mus musculus with 9 samples.

Results

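The proteasome genes described here are the 48 of 14444 rows of the deposited expression matrix whose symbols run from Psma to Psmg with a number, pseudogenes left out. The choice rests on gene symbols and uses no measured value. They are 7 genes of the alpha ring (Psma1 to Psma7), 4 structural genes (Psmb1 to Psmb4) and 3 catalytic genes (Psmb5 to Psmb7) of the beta ring, and 4 genes of inducible or tissue-specific beta subunits (Psmb8 to Psmb11). The regulatory particle adds 6 ATPases (Psmc1 to Psmc6) and 3 other genes (Psmd1, Psmd2, Psmd4) of its base and 8 genes of its lid (Psmd3, Psmd6, Psmd7, Psmd8, Psmd11 to Psmd14). Assembly chaperones account for 4 genes of the core (Psmg1 to Psmg4) and 3 of the base (Psmd5, Psmd9, Psmd10), activators for 4 (Psme1 to Psme4) and the core's inhibitor for 1 (Psmf1). Psmc3ip also meets the rule, but its protein is a recombination factor named for binding Psmc3 and not a subunit, so that 47 of the 48 genes belong to the proteasome. Psma8, Psme2b and Psme3ip1 had no row and were not analysed here.

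Total RNA of the prefrontal cortex, depleted of ribosomal RNA, was sequenced in 3 groups of 3 libraries, and the mice were between 5 and 8 weeks of postnatal age. Shank3 mutant mice were given UNC0642, an inhibitor of the histone methyltransferases EHMT1 and EHMT2, by intraperitoneal injection at 1 mg per kg daily over 3 days. A second set of Shank3 mutants, and the wild-type mice they were set against, were given saline. The labels give the mutant genotype as SHANK3 without the allele or its dosage, and strain and sex are not used here. Separate mice are not named for the 3 replicates within a group, and each p-value rests on the variation among libraries, part of which may be technical.

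The proteasome degrades proteins that carry ubiquitin chains. Its barrel-shaped core is built of alpha rings, which gate the entrance, and beta rings, which hold the catalytic sites. The regulatory particle docks on the barrel: the lid removes ubiquitin and the ATPases of the base unfold the substrate and feed it into the core. In immune cells and under interferon, the catalytic subunits encoded by Psmb5, Psmb6 and Psmb7 are exchanged for those of Psmb8, Psmb9 and Psmb10. In neurons, the proteasome takes part in activity-dependent turnover of postsynaptic proteins, Shank scaffolds among them.

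The values are read here on 2 scales. The deposited values, which the authors name CPM, had been adjusted so that each gene had the same mean log2 value in 2 sets of libraries. The first set joined UNC0642 replicates 2 and 3 to wild type, and the second joined UNC0642 replicate 1 to the saline mutants. The whole reads behind them were recovered for all 14444 genes and came to 12035098 to 16165483 per library. In the recovered reads, the first principal component of the 14396 other genes held 51.6% of the variance and put UNC0642 replicates 1 and 2 beside the saline mutants and UNC0642 replicate 3 beside wild type, so genotype and this division can be told apart only through UNC0642 replicate 3. Shank3 had 288, 303 and 322 deposited units in UNC0642-treated mutants, 333, 344 and 318 in saline mutants and 308, 315 and 355 in wild type, so its gene total did not separate the genotypes. Ehmt1 lay between 33.1 and 37.4 and Ehmt2 between 208 and 243 deposited units over the 9 libraries. Cortical markers were present in every library, among them Slc17a7 of excitatory neurons at 1468 to 1972 deposited units and Gad1 of inhibitory neurons at 222 to 291.

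Genes of the core and the base stood highest, and those of the immune-type catalytic subunits Psmb8 and Psmb9 and the thymus-type subunit Psmb11 lowest. Levels of different genes are compared as deposited units per kilobase of annotated exon, as the mean ± SD over the 9 libraries. The median of the 48 genes was 40.5 units per kilobase, against 7.72 over the 13869 genes with an annotated length, and 44 of the 48 lay above that all-gene median. The genes were short, with a median exon length of 1505 bases against 3405 over all genes, and 43 of the 48 were shorter than the all-gene median.

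Psmc5, an ATPase of the base, was highest at 120.7 ± 7.29 units per kilobase. Its deposited values were 164, 175 and 151 in UNC0642-treated mutants, 156, 156 and 159 in saline mutants and 169, 156 and 143 in wild type, so the groups overlapped. The catalytic Psmb7 followed at 103.6 ± 12.2, the structural Psmb4 at 98.6 ± 8.62, and the catalytic Psmb6 and Psmb5 at 95.1 ± 8.00 and 78.9 ± 9.16 units per kilobase. The catalytic genes thus stood among the highest of the core. The rest of the beta ring ran through Psmb3 at 71.4 and Psmb2 at 55.5 to Psmb1 at 30.7. In the alpha ring, Psma4 (64.4), Psma7 (63.5), Psma6 (62.9), Psma1 (58.6) and Psma5 (57.0) ran close together, and Psma3 and Psma2 lay lower at 30.1 and 24.7 units per kilobase. The deposited table names the gene, not its transcripts, and the annotated exons used for the length were longer for Psma2 (2911 bases) and Psma3 (2846 bases) than for Psma4 (1165 bases). Among the other base genes, levels were 80.9 for Psmd2, 78.4 for Psmc1, 70.4 for Psmc3, 57.0 for Psmc2, 52.6 for Psmc4, 50.9 for Psmd4, 43.6 for Psmd1 and 32.4 for Psmc6. In the lid, Psmd7 (59.7) and Psmd3 (58.5) were highest, followed by Psmd8, Psmd6 and Psmd14 between 44.2 and 44.5, then Psmd13 (36.9), Psmd12 (24.9) and Psmd11 (14.7 units per kilobase).

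The assembly chaperones, which act on the complex as it forms and are not part of the finished particle, lay below every gene of the constitutive core, base and lid. Psmg3 had 11.9, Psmg2 10.8, Psmg1 10.7 and Psmg4 8.64 units per kilobase, and Psmd10, Psmd5 and Psmd9 had 10.3, 10.1 and 8.90. Among the activators, Psme3, which forms the nuclear cap of the core, had 37.5, Psme1 and Psme2, which form the interferon-inducible cap, had 27.0 and 18.6, and Psme4, a large single-chain cap, had 8.77. Psmf1, the core's inhibitor, had 8.59. Lowest of all stood Psmc3ip (1.70), Psmb8 (1.62), Psmb9 (0.925) and Psmb11 (0.299). Psmb10, the third immune-type catalytic gene, was apart from them at 30.1 units per kilobase.

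Of 47 neighbouring pairs in this order, 14 lay further apart than the larger of their 2 SDs over the 9 libraries. Those SDs include variation that genes share between libraries, and pairs were not compared library by library. A smaller gap therefore does not show that 2 genes had the same level. With lengths from the full rather than the basic annotation, Psmc5 was again highest and the order correlated across genes with a Spearman coefficient of 0.912. The coefficient of variation over the 9 libraries ran from 3.48% for Psme3 to 24.6% for Psmc3ip, with a median of 9.11% against 10.6% over all genes. In all, 43 members had at least 100 reads in every library. The other 5 were Psmb11 with 9 to 22 reads, Psmb9 with 11 to 19, Psmc3ip with 13 to 39, Psmb8 with 19 to 50 and Psmg4 with 38 to 83, and counting error alone makes their values uncertain.

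**Figure D1:**
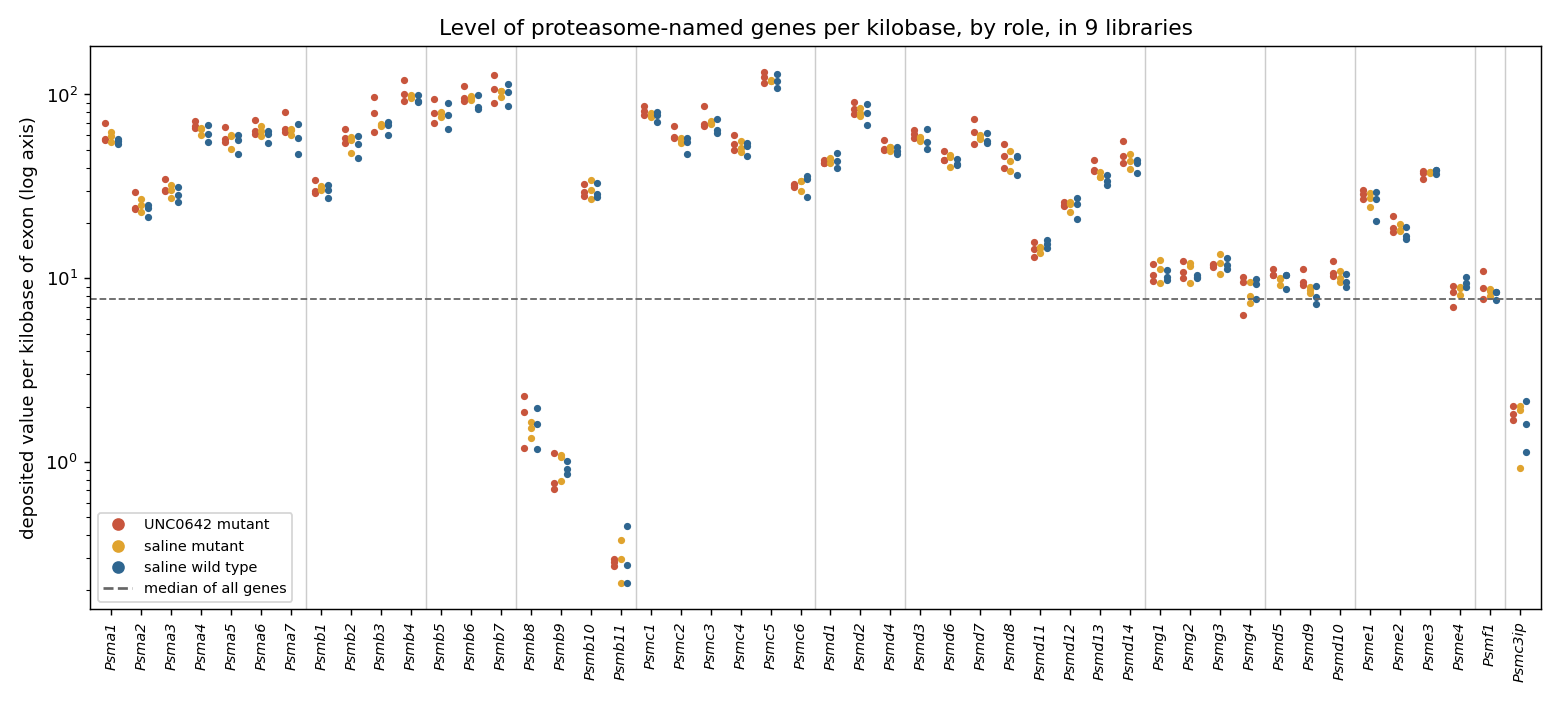
Deposited value per kilobase of annotated exon (log axis) for each of the 48 genes, ordered by role between the vertical lines; each point is 1 library, coloured by group, and the dashed line is the median of all genes (7.72). Psmc5 stands highest, and Psmb8, Psmb9, Psmb11 and Psmc3ip are the 4 genes below the line by their mean.

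Summed by part of the complex, the make-up of the transcript pool is given as shares of the summed level. Of the per-kilobase sum of the 48 genes, the 14 constitutive core genes held 44.7 ± 1.09% in UNC0642-treated mutants, 44.5 ± 0.470% in saline mutants and 44.0 ± 0.380% in wild type (SD, n = 3 each). The base held 28.9 ± 0.691% in UNC0642-treated mutants, 29.2 ± 0.530% in saline mutants and 29.4 ± 0.326% in wild type. The lid held 16.4 ± 0.215% in UNC0642-treated mutants, 16.1 ± 0.155% in saline mutants and 16.3 ± 0.0234% in wild type. Group means of each part differed by less than 1 percentage point. Activators with Psmf1 held 4.87% in UNC0642-treated mutants, 5.02% in saline mutants and 5.12% in wild type, assembly chaperones between 3.52% and 3.57%, and Psmb8 to Psmb11 together between 1.57% and 1.69%.

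Promoter sequences were compared because many of these genes moved together between libraries, as many other genes did. In recovered reads, 31 of 48 members (64.6%) had a Pearson coefficient over 0.8 with the median deviation of the other members. Of the 14396 other genes, 15.7% had such a coefficient with the members. That median was positive in saline mutants and UNC0642 replicates 1 and 2 and negative in the other libraries, as in the library division. RefSeq windows of 250 bases before to 50 bases after the transcription start, on GRCm38.p6, were found by symbol for 41 of the 48 members (44 windows). Both strands were searched for CCGGAAG, the core of sites bound by ETS-family factors, CCAAT, the box bound by NF-Y and TGACNNNGC, the antioxidant response element core to which Nfe2l1 binds with small Maf proteins. No word holds another of them. The palindrome bound by nuclear respiratory factor Nrf1 was searched as well and stood in 2 of 44 member windows (4.55%), against 1.86% of windows of measured genes and 0.971% of all. CCGGAAG stood in 16 of 44 member windows (36.4%), against 15.3% of the 14012 windows of measured genes and 8.86% of all 32851 windows. CCAAT stood in 34.1%, against 37.1% of windows of measured genes and 37.4% of all. TGACNNNGC stood in 13.6%, against 14.0% of windows of measured genes and 12.4% of all. The median GC content was 58.2% in member windows, 60.7% in windows of measured genes and 52.7% in all. These are matches of letters and were not tested as binding sites.

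The windows of Psma7, Psmb6 and Psmd4, which were higher in recovered reads of saline mutants than of wild type, and of Psme4, which was lower, are printed 5′ to 3′ on the gene's strand, with the matches in capitals. They lie at chr2:180042415-180042714 on the minus strand (Psma7), chr11:70525107-70525406 on the plus strand (Psmb6), chr3:95042565-95042864 on the minus strand (Psmd4) and chr11:30771525-30771824 on the plus strand (Psme4), all on GRCm38.p6.
Psma7: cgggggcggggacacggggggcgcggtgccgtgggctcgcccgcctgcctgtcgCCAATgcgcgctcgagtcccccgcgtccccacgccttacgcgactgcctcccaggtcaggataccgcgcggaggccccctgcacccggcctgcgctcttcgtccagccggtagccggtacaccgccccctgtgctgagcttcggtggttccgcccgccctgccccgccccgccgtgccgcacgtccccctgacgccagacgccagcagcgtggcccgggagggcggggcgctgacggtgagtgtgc
Psmb6: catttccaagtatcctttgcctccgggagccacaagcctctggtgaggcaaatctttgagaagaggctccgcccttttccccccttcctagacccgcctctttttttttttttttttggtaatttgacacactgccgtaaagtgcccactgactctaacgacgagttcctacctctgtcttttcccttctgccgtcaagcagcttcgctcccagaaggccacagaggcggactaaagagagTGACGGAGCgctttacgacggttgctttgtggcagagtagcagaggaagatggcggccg
Psmd4: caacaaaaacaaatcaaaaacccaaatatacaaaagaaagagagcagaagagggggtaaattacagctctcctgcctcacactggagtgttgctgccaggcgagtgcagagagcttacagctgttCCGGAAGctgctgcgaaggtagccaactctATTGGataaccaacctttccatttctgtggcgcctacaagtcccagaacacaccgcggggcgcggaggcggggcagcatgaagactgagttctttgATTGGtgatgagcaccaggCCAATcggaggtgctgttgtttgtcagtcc
Psme4: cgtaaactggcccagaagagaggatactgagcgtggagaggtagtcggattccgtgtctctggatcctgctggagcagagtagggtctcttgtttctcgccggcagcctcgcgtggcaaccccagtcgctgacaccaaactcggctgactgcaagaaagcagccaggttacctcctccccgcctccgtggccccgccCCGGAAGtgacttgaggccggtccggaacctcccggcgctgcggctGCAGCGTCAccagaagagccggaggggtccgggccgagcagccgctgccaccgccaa
Psma7 holds a single CCAAT, and Psmb6 a single TGACNNNGC just before its start. Psmd4 holds CCGGAAG and 3 CCAAT boxes, of which the 2 written ATTGG lie on the other strand. Psme4 holds CCGGAAG, as Psmd4 does, and, on the other strand, TGACNNNGC, as Psmb6 does. The printed windows were chosen by the differences of their genes. Whether any word goes with the direction of a gene's difference was not tested over the members.

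The genotype comparison sets saline mutants against wild type. In the deposited values no member passed the test and group differences were small: the median log2 difference of the 48 genes was 0.04, with 39 of 48 positive, against 0.00 over all genes. By limma with Benjamini-Hochberg adjustment over all genes, 0 of 48 members and 0 of 14444 genes (0.0%) passed an adjusted p under 0.05, and 0 members and 19 genes had an unadjusted p under 0.05. The groups overlapped for all 48 members, whereas every saline mutant library lay above every wild-type library for 1.73% of all genes and below for 1.7%. The members of smallest p were Psme4, with a log2 difference of -0.14 (SE 0.10), Psma7 (0.14, SE 0.12), Psmb6 (0.10, SE 0.09), Psmd13 (0.09, SE 0.08) and Psmd11 (-0.10, SE 0.09), each at a limma adjusted p of 1.00. When reads were simulated for this comparison over 14444 genes, 200 genes were given a log2 change of 1 in the saline mutant libraries alone. UNC0642 libraries were left at the wild-type level, with the same spread for every gene and no library division. By limma after the 2-set adjustment none was recovered (0 of 200, median estimate 0.253), and all 200 were recovered without it. A change of that size and kind was thus shrunk by the adjustment itself and missed under these simulated settings. The spread of each gene and the library division of these data were not simulated, so the count is not an estimate of power for them. A change shared by all mutant libraries was not simulated, so the simulation does not say whether it would be missed.

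In the recovered reads, most proteasome genes were higher in saline mutants than in wild type and Psme4 was lower. By limma-voom on the recovered reads, 11 members were higher and 1 was lower at an adjusted p under 0.05, against 5.71% of all genes higher and 6.71% lower. The median log2 difference of the 48 genes was 0.29, with 44 of 48 positive, against 0.00 over all genes. Every saline mutant library lay above every wild-type library for 29 members, where 20.8% of all genes did so, and below for 2 members, where 19.8% of all genes did so. This difference is also the difference between the 2 sides of the library division, and apart from UNC0642 replicate 3 the genotype and the division cannot be told apart. The count of 12 members rested on single libraries: 0 were called without saline mutant replicate 1 (0.125% of all genes), saline mutant replicate 3 (0.173%) or wild-type replicate 2 (0.0969%), 1 without wild-type replicate 3 (2.79%), 3 without saline mutant replicate 2 (3.35%) and 29 without UNC0642 replicate 3 (25.1%). Without UNC0642 replicate 1, UNC0642 replicate 2 or wild-type replicate 1 it was 14, 9 and 14, with 13.6%, 11% and 12.2% of all genes. Over those 9 fits, each without 1 library, the median log2 difference stayed between 0.23 and 0.34. In tissue RNA, fewer cells of a type and less RNA per cell cannot be told apart.

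Of the 14 genes of the alpha ring and the constitutive beta ring, 4 passed the test, all higher in saline mutants. Of all genes 5.71% were higher and 12.4% passed in either direction. All 7 alpha-ring and all 7 constitutive beta-ring genes had a positive difference, between 0.26 and 0.57. With the division as a term beside the group, 10 of the 14 were positive, between -0.27 and 0.23, and 0 passed. Psma7, an alpha-ring subunit, had 84.9, 81.7 and 65.6 recovered RPM (reads scaled to the size of the library) in UNC0642-treated mutants, 87.8, 82.5 and 89.2 in saline mutants and 69.9, 58.7 and 48.1 in wild type. Saline mutants lay above wild type in every library, and UNC0642 replicate 3 lay among the wild-type values. Psma7 rose by a log2 difference of 0.57 (SE 0.13, limma-voom adjusted p = 0.0209). Psma2, of the same ring, rose by 0.41 (SE 0.11, limma-voom adjusted p = 0.0301), and Psmb4, a structural beta subunit, by 0.44 (SE 0.11, limma-voom adjusted p = 0.0289).

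Of the catalytic genes, Psmb6, of the caspase-like site, had 80.5, 79.96 and 69.2 recovered RPM in UNC0642-treated mutants, 82.5, 84.3 and 86.2 in saline mutants and 71.8, 61.7 and 60.3 in wild type. It rose by 0.39 on the log2 scale (SE 0.09, limma-voom adjusted p = 0.0235). Psmb5, of the chymotrypsin-like site, had 79.5, 75.6 and 55.9 in UNC0642-treated mutants, 80.8, 75.5 and 79.5 in saline mutants and 72.1, 61.6 and 51.7 in wild type. Psmb7, of the trypsin-like site, had 139.7, 130.3 and 91.8 in UNC0642-treated mutants, 136, 127 and 136 in saline mutants and 116, 106 and 88.9 in wild type. Psmb5 and Psmb7 did not pass the test, at log2 differences of 0.36 and 0.37 (SE 0.14 each) with limma-voom adjusted p of 0.0864 and 0.0878, although saline mutants did not overlap wild type for either. For these 3 genes the annotation names 4 processed copies, and how reads were shared with such copies is not given.

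In the regulatory particle, 3 of 9 base genes and 1 of 8 lid genes passed the test, all 4 of them higher in saline mutants, where 5.71% of all genes were higher and 12.4% passed in either direction. The lid's share is close to that of all genes. Psmc3 and Psmc2, ATPases of the base, rose by 0.36 and 0.32 on the log2 scale (limma-voom adjusted p = 0.0349 and 0.0428), and Psmd4, a ubiquitin receptor of the base, rose by 0.31 (adjusted p = 0.0375). Psmc2 had 114, 110.0 and 95.3 recovered RPM in UNC0642-treated mutants, 108, 106 and 112 in saline mutants and 94.5, 89.7 and 78.0 in wild type. Psmd13, a lid subunit, had 81.6, 81.3 and 72.0 in UNC0642-treated mutants, 75.7, 75.1 and 80.5 in saline mutants and 67.7, 62.6 and 59.2 in wild type, and rose by 0.29 (SE 0.09, limma-voom adjusted p = 0.0461). It shares 342 bases of exon with Sirt3 on the opposite strand, and the strand setting of the counting is not given. Psmc3 likewise shares 215 bases with Slc39a13, Psmb7 405 bases with Nek6 and Psmd9 1849 bases with Gm26745, each on the opposite strand. Some other members also share exon bases with another gene, and the effect of such overlaps on the values was not tested.

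Psmd11, a scaffold subunit of the lid, ran the other way from the rest of the lid. It had 44.4, 40.2 and 44.8 recovered RPM in UNC0642-treated mutants, 41.7, 38.4 and 41.0 in saline mutants and 47.6, 45.1 and 50.1 in wild type. Saline mutants lay below wild type in every library, but the log2 difference of -0.24 (SE 0.09) did not pass the test (limma-voom adjusted p = 0.0883).

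The activators divided. Psme4, the large single-chain cap that opens the core without ATP, had 49.0, 54.1 and 65.6 recovered RPM in UNC0642-treated mutants, 43.5, 47.7 and 48.4 in saline mutants and 69.4, 73.0 and 78.9 in wild type. Every saline mutant lay below every wild-type library, with the UNC0642 libraries between them, and Psme4 fell by 0.66 on the log2 scale (SE 0.11, limma-voom adjusted p = 0.0105), the smallest p of the 48. Psme2, of the interferon-inducible cap, had 19.5, 18.7 and 15.9 in UNC0642-treated mutants, 21.5, 19.6 and 19.96 in saline mutants and 16.2, 14.5 and 14.0 in wild type, and rose by 0.45 (SE 0.12, limma-voom adjusted p = 0.0353). Its partner Psme1 had 33.2, 29.7 and 28.2 in UNC0642-treated mutants, 35.9, 33.8 and 30.04 in saline mutants and 26.5, 20.2 and 29.1 in wild type, with a log2 difference of 0.41 (SE 0.13) that missed the threshold (limma-voom adjusted p = 0.0587). For both genes of this cap every saline mutant lay above every wild-type library. Psme3 had 101, 100.2 and 89.8 in UNC0642-treated mutants, 102, 101 and 102 in saline mutants and 101, 101 and 96.5 in wild type, a log2 difference of 0.03 (SE 0.08), and its groups were close together. Psmf1, the inhibitor of the core, had 40.7, 37.4 and 26.5 in UNC0642-treated mutants, 37.0, 40.1 and 39.3 in saline mutants and 28.8, 28.9 and 25.9 in wild type. UNC0642 replicate 3 lay within the wild-type range, and saline mutants lay above it. Between saline mutants and wild type Psmf1 rose by 0.48 (SE 0.14, limma-voom adjusted p = 0.0415). Of the 7 assembly chaperones, Psmg1 alone passed the test, higher by 0.53 (SE 0.16, limma-voom adjusted p = 0.0477). Of all genes 5.71% were higher and 12.4% passed in either direction, so 1 of 7 is close to the share of all genes.

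Set against the core within each library, Psme4 amounted to 3.99%, 4.53% and 6.80% of the summed RPM of the alpha and beta rings in UNC0642-treated mutants, 3.47%, 4.11% and 3.83% in saline mutants and 6.67%, 7.59% and 9.05% in wild type. The wild-type libraries and UNC0642 replicate 3 lay above the other 5. These shares are not per kilobase, so they compare libraries and not the amounts of different genes. Psme4 is the longest member (6491 exon bases), and differences in the genotype comparison also followed exon length, as given below. On the deposited scale the same share was 4.62 ± 1.04% in UNC0642-treated mutants, 5.06 ± 0.428% in saline mutants and 5.86 ± 0.905% in wild type (SD, n = 3 each), with overlap between groups.

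**Figure D2:**
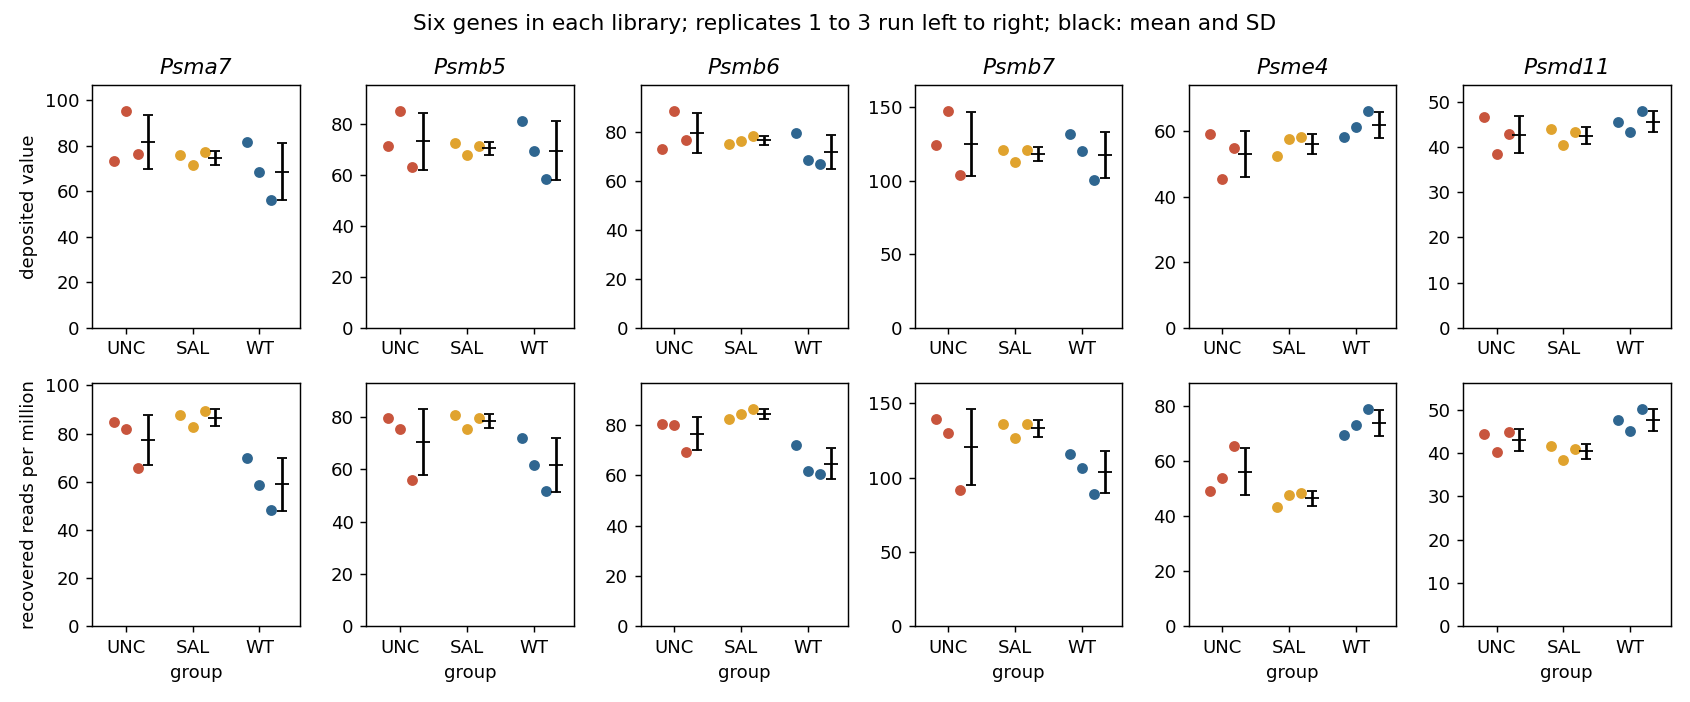
Deposited values (top) and recovered RPM (bottom) of Psma7, the 3 catalytic genes, Psme4 and Psmd11 in each library, by group (UNC: UNC0642-treated mutants, SAL: saline mutants, WT: wild type); points are libraries and black bars the mean and SD of 3. In the bottom row UNC0642 replicate 3 (right-hand UNC point) lies among the wild-type values for Psma7 and the catalytic genes, and saline mutants do not overlap wild type in any of the 6 genes.

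The inducible catalytic genes did not pass the test in any comparison on either scale, and their groups overlapped. Psmb10 had 38.5, 42.9 and 36.7 deposited units in UNC0642-treated mutants, 44.7, 35.2 and 39.4 in saline mutants and 43.4, 36.3 and 37.8 in wild type. Psmb8 had 3.03, 3.70 and 1.94 in UNC0642-treated mutants, 2.69, 2.49 and 2.20 in saline mutants and 2.63, 3.20 and 1.92 in wild type, with 19 to 50 reads a library. Psmb9 had 1.04, 0.965 and 1.50 in UNC0642-treated mutants, 1.47, 1.06 and 1.44 in saline mutants and 1.24, 1.37 and 1.16 in wild type, and the groups overlapped for all 3 genes. Psmb11, whose protein belongs to the thymus, had 1.26, 1.22 and 1.15 in UNC0642-treated mutants, 0.927, 1.26 and 1.60 in saline mutants and 1.17, 1.90 and 0.937 in wild type. The summed value of Psmb8, Psmb9 and Psmb10 over that of Psmb5, Psmb6 and Psmb7, not per kilobase, was 15.7 ± 0.840% in UNC0642-treated mutants, 16.4 ± 1.63% in saline mutants and 16.7 ± 1.23% in wild type (SD, n = 3 each). Psmb10 made up most of the inducible sum in every library, with 38.5 units beside 3.03 for Psmb8 and 1.04 for Psmb9 in UNC0642 replicate 1. The ratio and its tests therefore describe mainly Psmb10 against the constitutive genes, and say little about Psmb8 and Psmb9. The exact two-sided permutation test on the log2 ratio gave p = 0.8 for saline mutant against wild type, p = 0.6 for UNC0642-treated against saline mutant and p = 0.5 for UNC0642-treated mutant against wild type, each 0.8 after adjustment over the 3 comparisons. In recovered RPM the ratio was 15.8 ± 1.10% in UNC0642-treated mutants, 15.5 ± 1.56% in saline mutants and 17.3 ± 1.28% in wild type (SD, n = 3 each). Its log2 differences were -0.16 for saline mutant against wild type (exact permutation p = 0.3, adjusted 0.45), 0.03 for UNC0642-treated against saline mutant (p = 0.8, adjusted 0.8) and -0.13 for UNC0642-treated mutant against wild type (p = 0.3, adjusted 0.45). With 3 libraries against 3 the smallest p this test allows is 0.1. Psmb9 shares 212 bases of exon with Tap1 and Psmb8 498 bases with Gm20496, both on the opposite strand.

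The treatment comparison sets UNC0642-treated mutants against saline mutants. Again no member passed the test, and the median direction differed between the scales. In the deposited values the median log2 difference was 0.07, with 38 of 48 positive. By limma 0 of 48 members and 0 of 14444 genes (0.0%) passed, and 0 members and 281 genes had an unadjusted p under 0.05. The smallest p values belonged to Psmd13 (log2 difference 0.15, SE 0.08), Psmd9 (0.20, SE 0.12), Psmb3 (0.20, SE 0.12), Psmd5 (0.14, SE 0.09) and Psmc2 (0.13, SE 0.09), all at a limma adjusted p of 1.00. Psmd9 and Psmd5 encode chaperones of base assembly, and Psmb3 a structural beta subunit. Every UNC0642 library lay above every saline mutant library for 4 members (Psmc2, Psmd5, Psmd9 and Psmd13), where 3.17% of all genes did so, and below for 0, where 3.06% did so.

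UNC0642 replicate 2 stood apart, and without it the median was -0.01. It held the highest deposited value of the 9 libraries for 34 of the 48 genes. The share of all genes highest in that library is not given here, so the count is not read as particular to the members. The members' median log2 deviation from each gene's mean over the libraries was 0.21 there, against 0.0087 over all genes. UNC0642 replicates 1 and 3 had member medians of 0.03 and -0.03. For Psmb3 the deposited values were 60.4, 74.3 and 48.0 in UNC0642-treated mutants, 52.2, 51.6 and 52.9 in saline mutants and 52.0, 46.0 and 54.6 in wild type. For Psmd9 they were 24.8, 29.1 and 23.9 in UNC0642-treated mutants, 21.6, 22.4 and 23.2 in saline mutants and 23.6, 20.6 and 18.9 in wild type. In both genes replicate 2 was the highest of the UNC0642 libraries. Psmd5 had 49.4, 45.7 and 45.8 in UNC0642-treated mutants, 43.4, 40.5 and 44.1 in saline mutants and 45.9, 45.8 and 38.5 in wild type. In the recovered reads UNC0642 replicate 2 was highest for 3 of the 48 genes, with a median deviation of 0.10 over the members. When the adjustment was made again with UNC0642 replicate 2 moved to the set of the saline mutants, its median deviation was -0.04 and it was highest for 2 genes.

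In the recovered reads, limma-voom called 0 members between UNC0642-treated and saline mutants, with 0 of 14444 genes (0.0%) called, 2 members and 539 genes (3.73%) at an unadjusted p under 0.05, and a median log2 difference of -0.07 with 8 of 48 positive. Psme4 (0.27, SE 0.11) and Psmg1 (-0.35, SE 0.15) were those 2, each at a limma-voom adjusted p of 0.971. The UNC0642 libraries all lay above the saline mutants for Psme4 and Psmc3ip (2 members, 4.56% of all genes) and all below for Psmb1, Psmb6, Psmd1 and Psme2 (4 members, 5.28% of all genes). Between mutant libraries on 1 side of the division, that is UNC0642 replicates 1 and 2 against the 3 saline mutants, the median was -0.01 with 22 of 48 positive, and again 0 members and 0 genes passed. Psmb3 came nearest there, at a log2 difference of 0.19 (SE 0.07, limma-voom adjusted p = 0.776), with both UNC0642 libraries (67.5 and 66.1 recovered RPM) above the 3 saline mutants (58.3, 57.6 and 59.1). Psme4 differed there by 0.15 (SE 0.09, limma-voom adjusted p = 0.855).

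**Figure D3:**
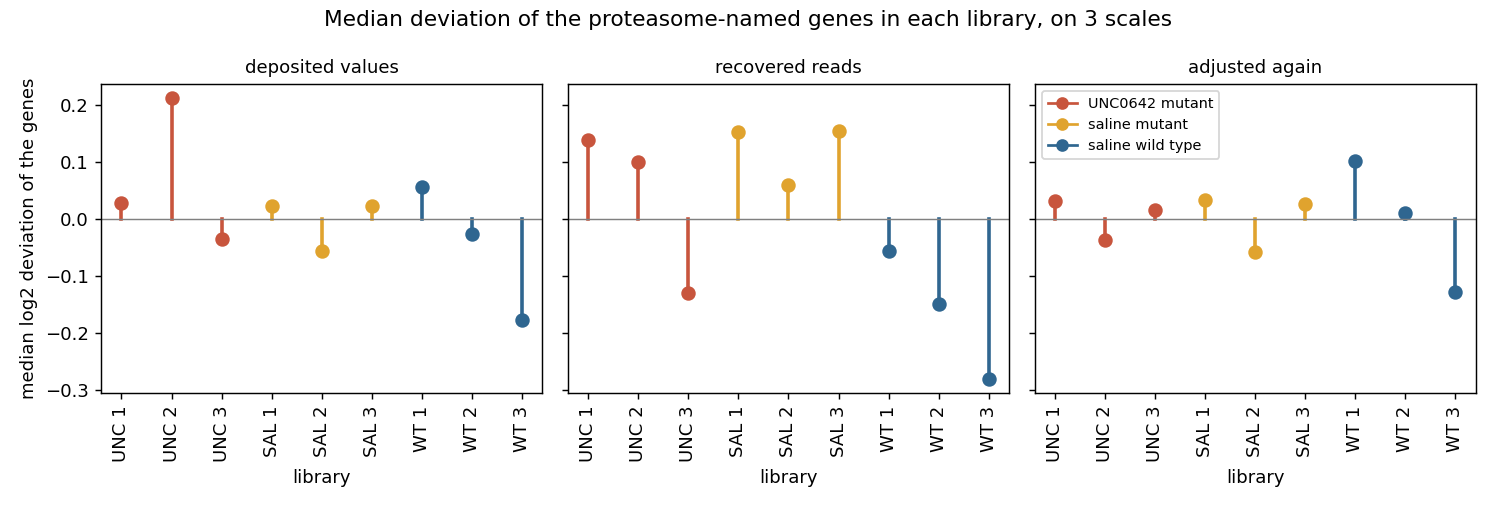
Median log2 deviation of the 48 genes from each gene's mean over the 9 libraries, per library (UNC: UNC0642-treated mutants, SAL: saline mutants, WT: wild type), in the deposited values (left), the recovered reads (middle) and after the adjustment was made again with the division as its sets (right). UNC0642 replicate 2 stands at 0.21 on the left, 0.10 in the middle and -0.04 on the right, and wild-type replicate 3 is lowest in all 3 panels.

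UNC0642-treated mutants were then compared with wild type. In the deposited values the median log2 difference was 0.12, with 39 of 48 positive, and limma called 0 members and 0 of 14444 genes (0.0%). Here 4 members and 1238 genes had an unadjusted p under 0.05. Psmd13 (0.24, SE 0.08), Psmd9 (0.30, SE 0.12), Psmc2 (0.20, SE 0.09) and Psme4 (-0.22, SE 0.10) were the 4, each at a limma adjusted p of 0.576, and Psma7 (0.26, SE 0.12) followed at 0.588. Psmd13 had 76.4, 87.3 and 77.4 deposited units in UNC0642-treated mutants, 70.9, 70.4 and 75.4 in saline mutants and 72.8, 67.3 and 63.6 in wild type, so UNC0642-treated mutants lay above both other groups in every library. The same held for Psmc2, with 105, 120.0 and 104 in UNC0642-treated mutants, 99.8, 97.6 and 103 in saline mutants and 103, 97.9 and 85.1 in wild type. Psme4 had 59.0, 45.3 and 54.9 in UNC0642-treated mutants, 52.4, 57.4 and 58.2 in saline mutants and 58.2, 61.2 and 66.05 in wild type, with overlap. Every UNC0642 library lay above every wild-type library for 3 members (5.85% of all genes) and below for 0 (5.84%). In the recovered reads limma-voom called 0 members and 11 genes (0.0762%, with 0.0138% higher and 0.0623% lower), with a median of 0.19 over the 48 genes and 41 of 48 positive, and 14 members and 2779 genes (19.2%) had an unadjusted p under 0.05. There the UNC0642 libraries all lay above wild type for 4 members (8.7% of all genes), Psmc2, Psmd9, Psmd13 and Psmg2, and all below for Psme4 and Psmd11 (2 members, 8.71% of all genes).

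Leaving out 1 library changed this count. Without UNC0642 replicate 3, limma-voom on the recovered reads called 22 members higher and 1 lower in UNC0642-treated mutants than in wild type, with 20.5% of all genes called, 9.93% higher and 10.5% lower. In the same fit 27 members were higher and 2 lower in saline mutants than in wild type, with 12.2% and 12.8% of all genes. Psme4 was the 1 lower member, at -0.51 (SE 0.09, limma-voom adjusted p = 0.00251), and Psmb3 the member of smallest p, at 0.57 (SE 0.09, adjusted p = 0.00119). The 3 catalytic genes Psmb7, Psmb6 and Psmb5 were higher by 0.39, 0.32 and 0.34 (limma-voom adjusted p = 0.0148, 0.0203 and 0.0406). In that library the median deviation of the 48 genes was -0.13, against 0.14 and 0.10 in UNC0642 replicates 1 and 2, 0.15, 0.06 and 0.15 in saline mutants and -0.06, -0.15 and -0.28 in wild type. For 43 of 48 members UNC0642 replicate 3 was nearer the wild-type mean than the saline mutant mean, which held for 6 and 8 members in UNC0642 replicates 1 and 2. Over the 14403 genes with reads in every library, the same held for 67.9% of genes in UNC0642 replicate 3, 27.3% in UNC0642 replicate 1 and 29.7% in UNC0642 replicate 2, so the library as a whole lay on that side. With the division as a term beside the group, limma-voom called 0 members in each comparison and at most 0.0346% of all genes (0.00692% higher), between UNC0642-treated mutants and wild type. The median log2 differences were 0.02, -0.01 and 0.02 for saline mutant against wild type, UNC0642-treated against saline mutant and UNC0642-treated mutant against wild type.

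**Figure D4:**
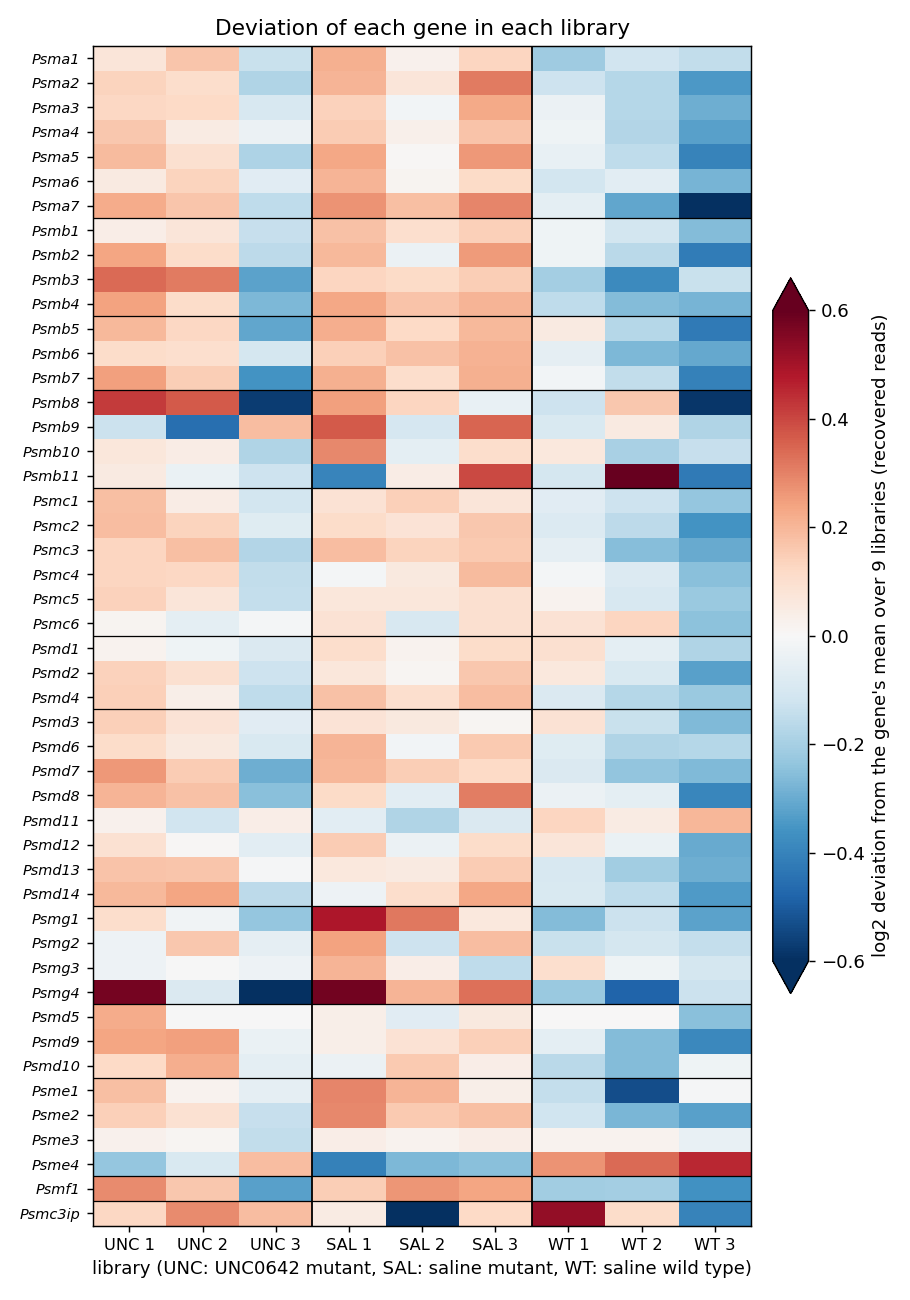
Log2 deviation of each gene (rows, ordered by role between the horizontal lines) from its mean over the 9 libraries (columns, by group) in recovered reads; red is above the mean and blue below, with the colours ending at 0.6. UNC0642 replicates 1 and 2 and the saline mutants are red for most genes, UNC0642 replicate 3 and the wild-type libraries are blue for most, and Psme4 and Psmd11 run the other way.

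The difference between saline mutants and wild type in recovered reads also followed transcript length. Across the 13869 genes with an annotated length, the log2 difference and exon length had a Spearman coefficient of -0.41, and across the 48 members -0.50; genes are not independent replicates, and no p is given. Genes of up to 1000 bases had a median log2 difference of 0.26 and the 7 members among them 0.38. From 1000 to 1500 bases the medians were 0.23 for all genes and 0.28 for 17 members, from 1500 to 2000 bases 0.17 and 0.31 (7 members), and from 2000 to 3000 bases 0.08 and 0.20 (11 members). From 3000 to 6000 bases they were -0.04 and 0.13 (5 members). Beyond 6000 bases all genes had a median of -0.21, and the 1 member there, Psme4 with 6491 bases, had -0.66. Members above the all-gene median of their range numbered 6 of 7, 11 of 17, 7 of 7, 8 of 11 and 5 of 5 in the ranges up to 6000 bases, from short to long, and Psme4 lay below its own.

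After the trend with exon length was removed from each library, 3 members passed the test, against 8.05% of genes in all, 3.87% of genes higher and 4.18% lower, and the median log2 difference of the 48 genes was 0.11. Psme4 was among them at -0.51 (SE 0.09, limma adjusted p = 0.0115), with Psma2 at 0.37 (SE 0.09, adjusted p = 0.0335) and Psmf1 at 0.51 (SE 0.13, adjusted p = 0.0388). Psma7 was at 0.35 (SE 0.11, limma adjusted p = 0.0578) and Psmd11 at -0.27 (SE 0.09, limma adjusted p = 0.0660). Of the 12 members that passed before the trend was removed, 9 no longer did. Psmb6 stood at 0.13 after it, Psmb4 at 0.22, Psme2 at 0.21, Psmd4, Psmc2 and Psmd13 at 0.17, 0.17 and 0.16, Psmg1 at 0.29 and Psmc3 at 0.24, with limma adjusted p between 0.0798 and 0.292. Of those 12 members, all but Psmf1 had a value nearer 0 than before. Psmd11, not one of the 12, went from -0.24 to -0.27. The 12 had been called by limma-voom on reads and the 3 by limma on log values. The loss of 9 calls can therefore not be told apart from the change of test.

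**Figure D5:**
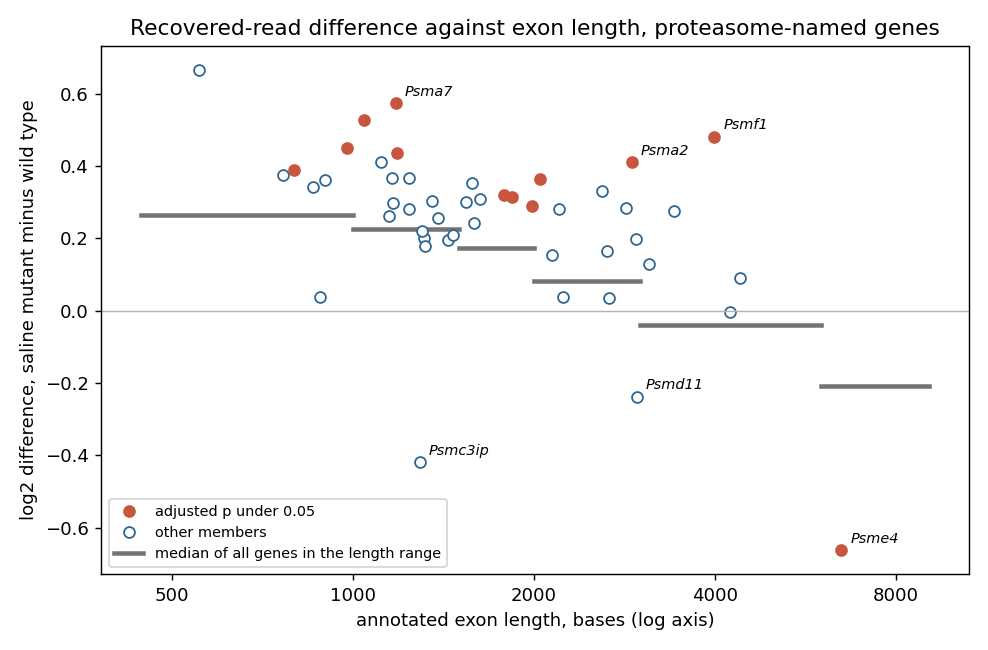
Log2 difference in recovered reads, saline mutant minus wild type, against annotated exon length (log axis) for the 48 genes; filled points passed an adjusted p under 0.05, open points did not, and grey lines are the medians of all genes in 6 length ranges. The grey medians run from 0.26 in the shortest range to -0.21 in the longest, and Psme4 lies at -0.66.

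Genes that work with the proteasome were compared on the same recovered scale, between saline mutants and wild type. There 5.71% of all genes were called higher and 6.71% lower. Of 11 measured subunits and factors whose symbols fall outside the rule, 8 were positive, with a median of 0.12. AI314180, which encodes the proteasome adaptor Ecm29, fell by 0.35 (SE 0.09, limma-voom adjusted p = 0.0268), and Shfm1, a small lid subunit, and Akirin2, a factor of nuclear import of the proteasome, stood at 0.39 and 0.30 without passing (adjusted p = 0.0627 and 0.0795). Ubb, which encodes a ubiquitin precursor, rose by 1.05 (SE 0.26, limma-voom adjusted p = 0.0277). How reads that match closely similar coding sequence were counted is not given.

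None of the 8 listed regulators of proteasome genes passed (0 of 8). Among them, Nfe2l1 and Nfe2l2 included, 2 were positive and the median was -0.12. Nfe2l2 had the smallest p, at -0.54 (SE 0.24, limma-voom adjusted p = 0.140). Of 8 genes of ubiquitin activation and shuttling, 5 were positive (median 0.04), and Uba6, which encodes an E1 enzyme, fell by 0.47 (SE 0.12, limma-voom adjusted p = 0.0313). Of 8 measured genes of the Vcp segregase and its cofactors, 4 were positive (median 0.03), and Nsfl1c rose by 0.35 (SE 0.10, limma-voom adjusted p = 0.0329). Of 15 measured genes of class I antigen presentation and the interferon response, 4 were positive, the median was -0.23 and 0 passed, with Irf9 nearest at -0.61 (SE 0.22, limma-voom adjusted p = 0.0749). In the deposited values 0 genes of these lists passed in any comparison, and in recovered reads 0 passed between UNC0642-treated and saline mutants or between UNC0642-treated mutants and wild type.

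Markers of cortical cell types were examined in the same comparison, where 5.71% of all genes were called higher and 6.71% lower. All 12 oligodendrocyte markers were lower in saline mutants than in wild type in recovered reads (median -0.73, 3 passed), with summed levels of 2755 to 5252 recovered RPM in UNC0642-treated mutants, 1629 to 3757 in saline mutants and 3241 to 5263 in wild type. All 16 meningeal fibroblast markers were higher (median 0.48, 1 passed), at 167 to 367 in UNC0642-treated mutants, 214.5 to 256 in saline mutants and 144 to 237 in wild type. For both lists the summed levels of saline mutants and wild type overlapped. For the 12 excitatory neuron markers the median was 0.17 (8 positive, 0 passed), with 8537 to 8965 in UNC0642-treated mutants, 9431 to 9841 in saline mutants and 8501 to 9339.9 in wild type, so saline mutants lay above wild type. Astrocyte markers had a median of -0.17 (2 of 12 positive, 0 passed), inhibitory neuron markers -0.21 (3 of 10, 1 higher and 1 lower), endothelial markers -0.21 (4 of 12, 2 lower) and microglia markers -0.08 (6 of 18, 1 lower). Microglia markers summed to 674 to 842 in UNC0642-treated mutants, 682 to 762 in saline mutants and 687 to 929 in wild type, and astrocyte markers to 4514 to 7458 in UNC0642-treated mutants, 5118 to 5532 in saline mutants and 5961 to 7742 in wild type. Between UNC0642-treated and saline mutants all 12 oligodendrocyte markers were positive in recovered reads (median 0.51), and 7 of 12 in the deposited values (median 0.01). Of the 12 astrocyte markers, 5 were positive there in recovered reads (median -0.04), 0 in the deposited values (median -0.16) and 0 between mutants on 1 side of the division (median -0.17). In that comparison 0 markers of any list passed. No marker of these lists had 0 reads in a library. The part of these markers in the proteasome differences was not tested.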

How the data were processed

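Gene-level values were analysed for 9 libraries of mouse prefrontal cortex, 3 in each of 3 groups. Per the submitters' processing notes, reads were handled with cutadapt, TopHat2 and HTSeq on mm9, with no versions and no strand setting for the counting. The deposited signal values, which the authors name CPM, are normalised values per gene that had been adjusted between 2 sets of libraries, a step that no label records and that was read from the values themselves. Of 255 ways to divide the libraries, 1 made the log2 set means of every gene equal (largest difference 2.5e-09, next 0.875). Whole reads behind the deposited values were recovered for 14444 of 14444 genes, with 100% of values within 0.02 reads of a whole number. The 9 single-library tables equalled the matrix. Sums of the deposited values ran from 975390 to 1028773, and recovered reads from 12035098 to 16165483 per library. Counting error is therefore small except for the 5 members under 100 reads.

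The main test was limma 3.58.1 with a mean trend on log2(deposited value + 0.5), over all genes and 9 libraries, two-sided, with Benjamini-Hochberg adjustment and a threshold of 0.05. Fold changes on that scale understate the change of low genes. limma-voom on the recovered reads, with trimmed-mean scaling, was an alternative, and was tested on simulated reads. RPM values here are recovered reads over these scaled library sizes. The division of the libraries was taken from the first principal component of all other genes. On the recovered reads, the fits that left out a library, used a replicate block or removed trends with exon length and GC content, and the adjustment made again, were chosen after seeing the data. Ratios were compared by exact permutation tests in Python 3.11.15 with scipy 1.17.1. Exon lengths came from the basic GENCODE M21 annotation for 13869 symbols, and promoters from RefSeq on GRCm38.p6, another build than that of the reads. Genes named one by one are the catalytic, inducible and activator genes, the highest and lowest in level, and the 5 members of smallest p in each comparison; members called in recovered reads were added after their values were seen. The members and gene lists were chosen with earlier results of these data known. Whether replicate numbers pair the libraries was checked by the correlation of their deviations, and alternatives left out each library in turn, changed the pseudocount and low-value filter, and changed the scaling. Some genes of the listed ubiquitin group are not reported here, and no count or sum is given for that group.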

Additional observations from a re-analysis of the deposited data

How the results depend on the processing

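Between saline mutants and wild type, 0 members passed in the deposited values (0.0% of all genes). With limma-voom on recovered reads 12 passed under either trimmed-mean (12.4% of all genes) or median-of-ratios scaling. With the exon length trend removed limma called 3 (8.05% of all genes), and with length and GC trends removed 5. The shares of all genes under median-of-ratios scaling and with both trends removed are not given here. The median log2 difference was 0.29 with limma-voom and 0.28 with median-of-ratios scaling. Leaving out each library in turn, over both scales, gave 0 to 29 members, the 29 beside 25.1% of all genes. The medians were -0.0061 to 0.34. Between UNC0642-treated and saline mutants, the count was 0 under every alternative run, and the median was -0.075 with limma-voom, -0.071 with median-of-ratios scaling, -0.042 with the length trend removed, and -0.13 to 0.12 without single libraries. Psmb3 turned to -0.025 with limma-voom and -0.022 with median-of-ratios scaling, and Psmc2 to -0.037, -0.034 and, with length and GC trends removed, -0.034, and without single libraries the ranges were -0.13 to 0.36 for Psmb3, -0.087 to 0.16 for Psmc2, -0.0099 to 0.19 for Psmd13, -0.010 to 0.16 for Psmd5 and -0.0029 to 0.26 for Psmd9. Between UNC0642-treated mutants and wild type, the count without single libraries was 0 to 23, the 23 beside 20.5% of all genes. The median was 0.028 to 0.28 without single libraries and 0.00226 once the adjustment was made again. The inducible to constitutive catalytic ratio of UNC0642-treated against saline mutants turned to a log2 difference of 0.029 in recovered reads and 0.14 for Psmb8 over Psmb5, which gave 0.069 for UNC0642-treated mutants against wild type. Without single libraries that ratio ranged over -0.11 to 0.032 for saline mutants against wild type, -0.12 to 0.019 for UNC0642-treated against saline mutants and -0.12 to -0.027 for UNC0642-treated mutants against wild type. The cause of these shifts was not tested, except that recovered reads lack the 2-set adjustment by construction.

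No pairing by replicate number was seen, as correlations of deviations ran from -0.19 to 0.31. With 3 libraries a group this check cannot exclude pairing. With the replicate block, 0 members passed in the deposited values in each comparison. In recovered reads the block gave 19 members and a median of 0.28 for saline mutants against wild type. The share of all genes called in that fit is not given here, so the count is not read as particular to the members. For UNC0642-treated against saline mutants the block gave a median of -0.071, with Psmb3 at -0.019 and Psmc2 at -0.035.

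Other pseudocounts, the filter on low values and fits on only the groups compared left each count of members at 0. Genes of few reads, Psmb8, Psmb9, Psmb11, Psmc3ip and Psmg4, had the widest errors, and 3 libraries a group limit every comparison.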
